A study of Mus musculus with 4 samples.

Results

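The genes of the cytosolic ribosome's own proteins were followed in RAW264.7, an established mouse macrophage-like cell line, on 4 Agilent 1-colour expression arrays. Members were the non-control probes whose gene name on the array is Rpl or Rps with a number and at most one of the endings a, l, x or l1, which leaves out the Rps6k kinases and pseudogene names. This took 173 of 55681 probes and 78 of 36086 genes, 48 of the large subunit and 30 of the small subunit. The study kept cells with an integrated artificial microRNA vector for 4 h with 50 µg/mL AEPS, a polysaccharide from Actinidia eriantha roots, or in DMEM medium alone. The 4 groups were the cells labelled Linc-AAM knockdown under AEPS, labelled Linc-AAM knockdown in DMEM, labelled scramble under AEPS and labelled scramble in DMEM, with 1 array each. All 4 groups carried a blasticidin-selected vector kept as a bulk culture, and the target of the knockdown vector is Linc-AAM, which does not code for protein. As no culture was repeated, differences between single arrays could not be set against replicate spread, and their precision is limited by having 4 arrays.

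The cytosolic ribosome is built from ribosomal RNA and about as many kinds of protein as there are genes in this set, each needed in nearly equal amounts. Their mRNAs are abundant in growing cells, and most begin with a run of pyrimidines at the very 5′ end, the terminal oligopyrimidine (TOP) motif, through which mTORC1 and LARP1 control their translation more than their amount. A few members are paralogs that can replace a common protein in the ribosome of particular tissues or states.

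The arrays carried the macrophage markers, and the line labels differed between files. All 10 macrophage markers, among them Csf1r, Cd14 and Lyz2, passed background on at least 2 arrays, as did 0 of 4 epithelial, 1 of 4 B cell, 1 of 3 erythroid, 2 of 4 T cell, 3 of 4 fibroblast and 2 of 2 dendritic markers. In the authors' value table each column ranked the probes as the scanner array of the other line and the same treatment did, and its own array less closely (Spearman rho across probes at most 0.969). Lines are named here as on the scanner files. By the labels of the value table, every line difference below would change sign. Linc-AAM itself was not analysed here. The 75th percentile of processed intensity, by which each array was scaled, was 448.3 for knockdown under AEPS, 439.1 for knockdown in DMEM, 509.7 for scramble under AEPS and 587.7 for scramble in DMEM, and 0 spots were saturated.

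The letters that the array reads for the 3 members with the highest AEPS effects, and for the paralog Rpl22, are shown first, because probes of this family can share sequence with other loci. Capitals mark the stretch that another probe of the array also holds. For Rpl22l1 and Rpl22 the first 30 bases of the probe are printed, and for Rps18 and Rpl7l1 all 60. In mm9 they lie at chr3:28706237-28706296 on the plus strand for Rpl22l1, chr4:151706515-151706574 on the plus strand for Rpl22, chr17:34089041-34089202 on the minus strand for Rps18 and chr17:46912582-46912641 on the minus strand for Rpl7l1.
Rpl22l1: cagagtCTGAGGACTAATTGGCCTCTGCTT
Rpl22: ggaggaagacgagGATTAGGACACATTGGT
Rps18: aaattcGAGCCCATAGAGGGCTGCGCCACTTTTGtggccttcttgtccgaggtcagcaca
Rpl7l1: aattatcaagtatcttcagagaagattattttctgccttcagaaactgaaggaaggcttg
The Rpl22l1 probe shared 54 bases in a row with a probe named LOC100042049, the Rpl22 probe 43 with one named LOC623483, and the Rps18 probe 28 with an unnamed one. No shared run of 25 bases or more was found for the Rpl7l1 probe. Across the family, 93 other probes shared at least 25 bases in a row with 65 member probes of 40 genes, so the signal of these genes and of their near copies cannot be told apart fully.

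The starts of member genes are shown because the TOP motif lies there. RefSeq promoter windows (GRCm38.p6) matched 59 of the 78 genes with 71 windows. Below are 25 bases before and 25 after the annotated start, with the longest run of C and T that begins within 20 bases of the start in capitals. The windows are chr3:28805483-28805532 (plus strand) for Rpl22l1, chr17:33955641-33955690 (minus) for Rps18, chr2:39005107-39005156 (minus) for Rpl35, chr14:24490653-24490702 (plus) for Rps24 and chr4:152325701-152325750 (plus) for Rpl22. They take in members with high and low AEPS effects and a brightly read one. For Rps24 and Rpl22, which have 2 windows each, 1 is shown.
Rpl22l1: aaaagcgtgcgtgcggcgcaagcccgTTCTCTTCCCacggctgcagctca
Rps18: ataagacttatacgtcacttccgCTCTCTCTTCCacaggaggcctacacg
Rpl35: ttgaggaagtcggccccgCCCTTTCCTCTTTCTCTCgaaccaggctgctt
Rps24: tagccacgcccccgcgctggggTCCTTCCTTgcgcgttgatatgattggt
Rpl22: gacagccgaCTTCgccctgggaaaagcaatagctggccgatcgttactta
The longest run within 20 bases of the start had a median of 7 bases in member windows, against 5 in all 32851 windows. A run of 8 or more was present in 30 member windows (42.3%), against 16.0% of all windows. CTTTC, which can lie inside such a run, was found within 20 bases of the start in 25.4% of member windows and 5.49% of all windows. CCGGAA, letters found in the binding sites of ETS factors, stood on either strand in 47.9% of member windows of 300 bases and 14.9% of all windows. CACGTG, the E box that Myc can bind, stood in 11.3% and 7.15%, and TATAAA in 8.45% and 13.6%. A match describes letters only and is not a site.

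Nearly all members were read by very bright probes. All 76 tested genes were well above background on all 4 arrays. Their probes had a median signal percentile of 99.1 among the 22341 genes that passed background on at least 2 arrays. Of the 76 members, 73 lay above the 95th percentile, and the other 3 were Rpl3l at 22.6, Rpl21 at 59.9 and Rpl7l1 at 64.2. Probe brightness depends on the probe as well as on the RNA, so it gives no order of gene levels. Member probes were 0.311% of the probes and carried 11.0% of the summed processed intensity on the array of knockdown under AEPS, 10.9% for knockdown in DMEM, 10.8% for scramble under AEPS and 10.6% for scramble in DMEM. The 2 members not tested were paralogs known from the testis. Rpl39l was well above background on 0 arrays, and Rpl10l on 1, that of scramble under AEPS.

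With AEPS, the ribosomal protein genes differed from DMEM by small amounts that lay close to one another. In an additive model of line and treatment fitted with limma over 22341 genes, 0 of 76 members passed an adjusted p of 0.05 upward and 0 downward, while 7.4% of all genes tested were called higher and 7.29% lower. The smallest effect that this fit called among all genes was 0.59 on the log2 scale, above that of every member, so the count of 0 does not show that the members were unchanged. With a prior variance that follows intensity, 54 of 76 members were called higher and 0 lower by limma, against 16.2% of all genes called higher. Without that trend, limma counted 2 of 76 members at an unadjusted p under 0.05, Rpl22l1 and Rpl7l1, against 7582 of all 22341 genes. The members' median AEPS effect was 0.19 on the log2 scale, with a range of -0.12 to 0.41 and an SD over genes of 0.070. Over all genes tested the median was 0.069, with quartiles of -0.22 and 0.28. The large subunit had a median effect of 0.19 and the small subunit of 0.18. The standard errors of single members ran from 0.113 to 0.134, and their limma adjusted p-values from 0.094 to 0.704.

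The same picture held in each line when arrays were compared by size. On the arrays labelled knockdown, the members' median difference of AEPS minus DMEM was 0.17 (range -0.18 to 0.43), and that of all genes measured on all 4 arrays was 0.054. On the arrays labelled scramble, the members' median was 0.20 (range -0.07 to 0.43), and that of all such genes was 0.057. A 2-fold difference was reached by 0 of 76 members in either line, against a background of 7.21% of genes on the arrays labelled knockdown and 10.5% on those labelled scramble. A difference of at least 0.32 on the log2 scale upward in both lines was reached by 1 member, Rpl22l1 (background 13.7%), and downward in both by 0 (background 14.2%). An increase of any size in both lines was seen for 71 of 76 members, while 44.7% of all genes measured on all 4 arrays showed one. Both figures are for 75th percentile scaling, and before it the members' median on the arrays labelled scramble was -0.003. With that scaling, other genes above the 95th percentile of signal had medians of 0.17 (labelled knockdown) and 0.19 (labelled scramble).

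**Figure D1:**
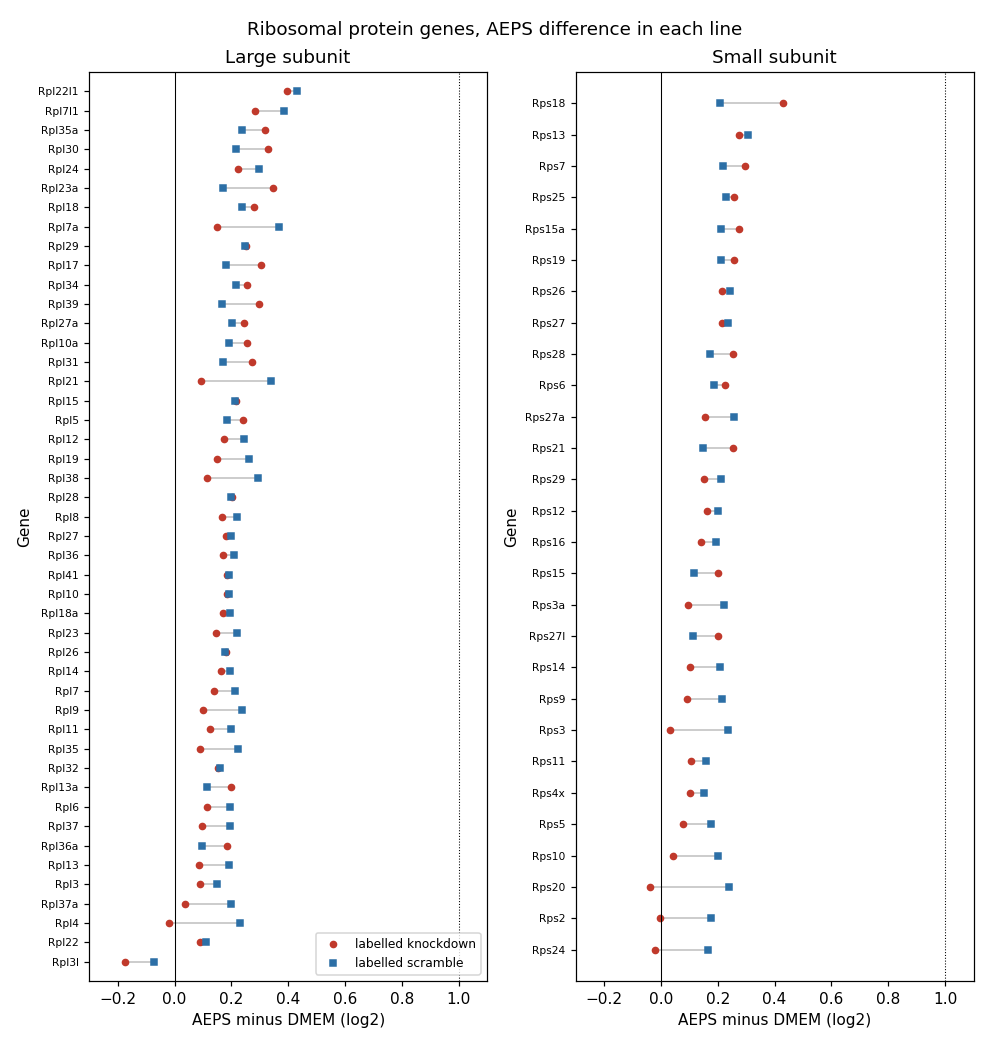
AEPS minus DMEM (x axis, log2 of scaled signal) for 74 of the 76 tested ribosomal protein genes (y axis, ordered by the effect over both lines), with large-subunit genes at left and small-subunit genes at right. Circles are the arrays labelled knockdown, squares those labelled scramble, 1 array per group, and the dotted line marks 2-fold. All values shown stay below 2-fold, and Rpl22l1 has the highest effect over both lines by brightest probes.

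Other genes of the same brightness had a like median difference, and the size of the shift depended on the scaling of the arrays. Non-member genes above the 95th percentile of signal (n = 944) had a median AEPS difference of 0.17 on the arrays labelled knockdown and 0.19 on those labelled scramble. Non-members below the median signal (n = 10169) had medians of 0.011 and 0.062 on the same pairs of arrays. On the arrays labelled scramble, the members' median processed intensity before scaling was 235415 under AEPS and 235622 in DMEM, a median log2 difference of -0.003 before scaling, against -0.15 for all genes measured on all 4 arrays. The 75th percentile of the scramble array under AEPS stood lower than that in DMEM by a log2 ratio of -0.21. On the arrays labelled knockdown, the members' median intensity before scaling was 204857 under AEPS and 176232 in DMEM, a median log2 difference of 0.20, against 0.084 for all such genes. Scaling by 1 value per array moves every gene alike, so the members' median stood above that of all genes with or without it. With quantile normalization, the members' median was 0.037 on the arrays labelled knockdown and -0.016 on those labelled scramble, against -0.037 and -0.044 for all genes well above background on the arrays compared. The part of signal level and scaling in the 0.19 shift was not tested beyond these values.

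**Figure D2:**
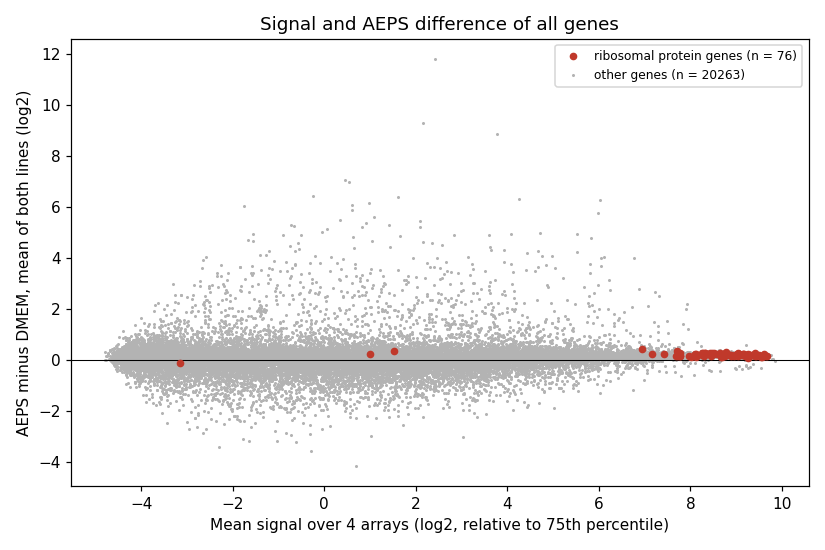
Mean of the AEPS minus DMEM difference over both lines (y axis, log2) against mean signal over the 4 arrays (x axis, log2 relative to the 75th percentile) for 20339 genes measured on all 4 arrays. Red points are the 76 ribosomal protein genes and grey points all other genes; 73 members lie in the highest 5% of signal and spread less than the grey points.

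**Figure D3:**
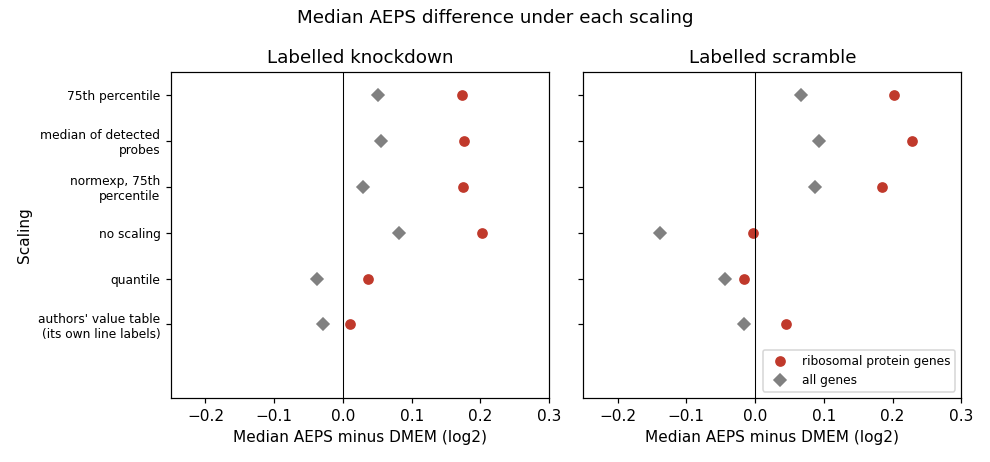
Median AEPS minus DMEM difference (x axis, log2) of the 76 ribosomal protein genes (circles) and of all genes well above background on the arrays compared (diamonds) under 6 treatments of the intensities (y axis), the last being the authors' value table by its own labels, for the arrays labelled knockdown (left) and labelled scramble (right). The members' median is 0.17 and 0.20 with 75th percentile scaling and 0.037 and -0.016 with quantile normalization. In the value table, each line's columns match the scanner arrays of the other line.

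Rpl22l1, a paralog that can take the place of Rpl22 in the ribosome, had the highest AEPS effect of the set by brightest probes. Its processed intensity was 58060 in knockdown under AEPS and 43219 in knockdown in DMEM, and 78429 in scramble under AEPS and 67109 in scramble in DMEM. Before scaling, the AEPS array was the higher one in each line, and both arrays labelled scramble were higher than the 2 labelled knockdown. On the scaled log2 values, knockdown under AEPS (7.02) stood above scramble in DMEM (6.84). After scaling, AEPS minus DMEM was 0.40 in the line labelled knockdown and 0.43 in the line labelled scramble, for an effect of 0.41 ± 0.11 (SE; limma adjusted p = 0.094). With normexp background correction the effect was 0.41 and its limma adjusted p was 0.0283 (11.3% of all genes called higher). With quantile normalization the effect was 0.11 (limma adjusted p = 0.522), and it was 0.18 by the authors' value table (limma adjusted p = 0.338). The probe named LOC100042049, which shares most of its letters, differed by 0.37 in each line. Dimmer probes of Rps27a, Rps25 and Rpl30 had higher effects than Rpl22l1, of 0.69, 0.43 and 0.42.

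Rpl22 itself, a large-subunit protein that binds RNA, differed less. Its intensity was 185734 in knockdown under AEPS and 170984 in knockdown in DMEM, and 218558 in scramble under AEPS and 233470 in scramble in DMEM. Scaled differences were 0.09 and 0.11, with a limma effect of 0.10 (adjusted p = 0.569). Its dimmer probe at chr4:151708012-151708071 (mm9, plus strand) differed by -0.30 on the arrays labelled knockdown and -0.35 on those labelled scramble. The 2 Rpl22 probes therefore disagreed in sign, the gap of 0.42 being the second largest between probes of a member.

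Rpl7l1, a dimly read relative of Rpl7, ranked next. Its intensity was 1278 in knockdown under AEPS and 1029 in knockdown in DMEM, and 1845 in scramble under AEPS and 1627 in scramble in DMEM. It was higher with AEPS in each line, by 0.28 in the line labelled knockdown and 0.39 in the line labelled scramble after scaling (limma effect 0.33 ± 0.12, SE, adjusted p = 0.143). Rpl7 differed by 0.14 and 0.21.

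Rps18, a protein of the small subunit's head, had by its brightest probe the third highest effect and an uneven one. Its intensity was 102227 in knockdown under AEPS and 74341 in knockdown in DMEM, but 122306 in scramble under AEPS and 122180 in scramble in DMEM. Before scaling, only the pair labelled knockdown therefore differed visibly. After scaling, the differences were 0.43 and 0.21 (limma effect 0.32, adjusted p = 0.178), and the gap of 0.22 was the largest positive difference in response among the members. The probe that shares 28 bases with the brightest Rps18 probe differed by 0.32 and 0.19. The other Rps18 probe had an effect of 0.17 over both lines, below the members' median of 0.19.

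The next 3 genes by effect were Rps13, Rpl35a and Rpl30. Rps13, of the small subunit, differed by 0.28 on the arrays labelled knockdown and 0.31 on those labelled scramble. Rpl35a, one of the genes mutated in human Diamond-Blackfan anaemia, differed by 0.32 and 0.24, and Rpl30, of the large subunit, by 0.33 and 0.22. Their limma adjusted p-values were 0.173, 0.189 and 0.20.

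At the low end stood Rpl3l, the paralog of Rpl3 that striated muscle uses. Its intensity was 61.2 in knockdown under AEPS and 67.7 in knockdown in DMEM, and 44.0 in scramble under AEPS and 53.3 in scramble in DMEM. It was the only one of the 76 members lower with AEPS in both lines, by differences of -0.18 and -0.07 (limma effect -0.12 ± 0.12, SE, adjusted p = 0.495). Of the 20339 genes measured on all 4 arrays, 6717 were lower with AEPS in both lines. With normexp background correction the Rpl3l effect was 0.013. Rpl3 differed by 0.09 and 0.15.

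Above Rpl3l, the lowest effects belonged to Rps24, Rps2, Rpl22, Rps20 and Rpl4. Rps24, whose human gene is mutated in Diamond-Blackfan anaemia, differed by -0.02 on the arrays labelled knockdown and 0.17 on those labelled scramble. Rps2, at the mRNA entry side of the small subunit, differed by -0.002 and 0.17. Rps20 differed by -0.04 and 0.24, and Rpl4, which lines the peptide exit tunnel, by -0.02 and 0.23. By their brightest probes, these 4 genes were flat in the line labelled knockdown and slightly higher with AEPS in the line labelled scramble. Their limma adjusted p-values ran from 0.596 to 0.704. The other Rps2 probe differed by 0.18 on the arrays labelled knockdown and 0.22 on those labelled scramble. Among the other Rps24 probes were differences of 0.28 and 0.24, and of 0.14 and 0.21.

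The remaining paralog pairs moved little. Rps27l, a paralog of Rps27 known as a p53 target, differed by 0.20 on the arrays labelled knockdown and 0.11 on those labelled scramble, and Rps27 by 0.21 and 0.24. The Rps27 probe used is placed on chromosome 9 in mm9, at chr9:114891509-114891568 on the minus strand, while RefSeq gives the gene on chromosome 3. Rpl39, a short protein of the exit tunnel, differed by 0.30 and 0.17. Rpl10, needed for the late steps of large-subunit assembly, differed by 0.18 and 0.19. Their paralogs Rpl39l and Rpl10l gave no value to compare.

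**Figure D4:**
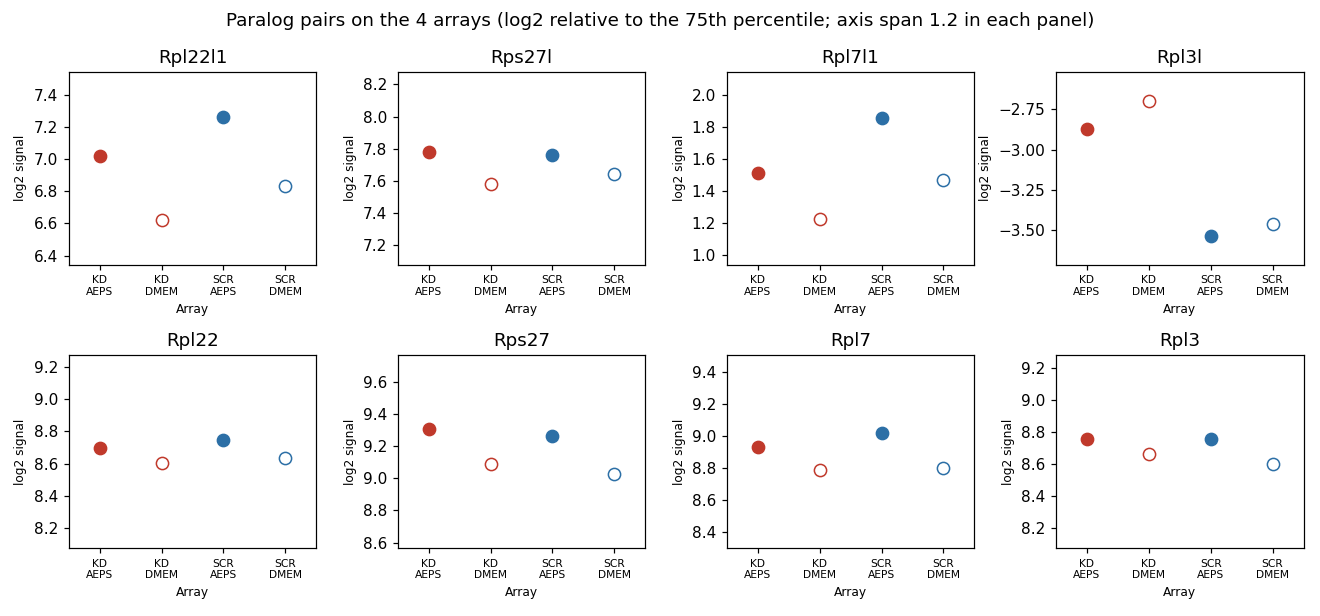
Scaled log2 signal (y axis, relative to the 75th percentile of each array) of 4 pairs of paralogs on the 4 arrays (x axis: KD, labelled knockdown; SCR, labelled scramble), with filled circles for AEPS and open circles for DMEM. Each panel spans 1.2 log2 units around its own centre, so heights are comparable but positions are not; Rpl22l1 and Rpl7l1 are higher with AEPS in each line, and Rpl3l is higher on both arrays labelled knockdown.

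Several members are known for roles outside the ribosome, and 5 of them were picked for that with their values already seen. Rpl13a, which interferon-treated human monocytes release from the ribosome to silence inflammatory mRNAs, differed by 0.20 on the arrays labelled knockdown and 0.11 on those labelled scramble. Rps3, which can bind NF-kB subunits, differed by 0.03 and 0.24. Rps6, the substrate of S6 kinases, differed by 0.23 and 0.19. Rpl5 and Rpl11, which bind Mdm2 when ribosome assembly fails, differed by 0.24 and 0.18 and by 0.12 and 0.20. None of these 5 passed the limma threshold for AEPS.

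Probes of the same gene mostly gave like values. Of 52 members with 2 or more probes well above background on all 4 arrays, the range of the AEPS effect over probes had a median of 0.08, and 2 had a range of 0.3 or more. The widest was that of Rps27a, which encodes ubiquitin fused to a small-subunit protein, at 0.57. Its brightest probe differed by 0.15 on the arrays labelled knockdown and 0.26 on those labelled scramble. A dim one at chr11:29447939-29447998 (mm9, minus strand) had an intensity of 233 in knockdown under AEPS and 130 in knockdown in DMEM, and 253 in scramble under AEPS and 198 in scramble in DMEM. With each probe fitted on its own, the dim probe's effect was 0.69 ± 0.13 (SE; limma adjusted p = 0.053). A probe of Rpl23 was printed 10 times on each array, with an SD between spots of 0.021 to 0.043. The near-copy probes moved like the members, since the 93 probes had median AEPS differences of 0.22 in the line labelled knockdown and 0.21 in the line labelled scramble, with 0 at 2-fold.

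Between the lines, the members differed little and in both directions after 75th percentile scaling. Before scaling, the members' median intensity was lower on the arrays labelled knockdown, at 204857 against 235415 under AEPS and 176232 against 235622 in DMEM. The 75th percentile of the array was also lower there, at 448.3 against 509.7 under AEPS and 439.1 against 587.7 in DMEM. By limma over both media, 0 of 76 members were called higher and 0 lower in knockdown than in scramble, with 0.398% and 0.34% of all genes called. At an unadjusted p under 0.05 limma counted 1 of 76 members, Rpl3l, against 3251 of all 22341 genes tested. The members' median line effect was 0.003, with an SD over genes of 0.11, and 39 of the 76 were positive. Knockdown minus scramble had a member median of -0.010 under AEPS and 0.027 in DMEM, and 0 members reached 2-fold in either medium, against a background of 3.6% under AEPS and 2.8% in DMEM.

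Rpl3l had the highest line effect, with the intensities given above higher on both arrays labelled knockdown than on both labelled scramble. After scaling, knockdown minus scramble was 0.66 under AEPS and 0.77 in DMEM (limma effect 0.71 ± 0.12, SE, adjusted p = 0.135). Rpl21, whose probe reads dimly with 1019 in knockdown under AEPS, 935 in knockdown in DMEM, 1049 in scramble under AEPS and 956 in scramble in DMEM, had a line effect of 0.27. Rps14, Rpl37a and Rpl37, all bright, had line effects of 0.17, 0.11 and 0.11. Before scaling, Rpl21, Rps14, Rpl37a and Rpl37 all read lower in knockdown than in scramble in both media, so their positive sign came with the scaling. The 2 probes of Rpl21 differed by 0.22 in line effect. Among those at the other end were Rpl7l1 at -0.29, Rpl22l1 at -0.23, Rps18 at -0.18 and Rps3a at -0.10. For Rpl22l1 and Rpl7l1, the order was the same in both media, with knockdown minus scramble of -0.25 and -0.34 under AEPS and of -0.21 and -0.24 in DMEM.

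The difference in response, the AEPS difference in the line labelled knockdown minus that in the line labelled scramble, has no test, since 1 array stands behind each group. Its member median was -0.034, against 0.038 over all genes measured on all 4 arrays. It was positive for 28 of 76 members and for 11370 of those 20339 genes. Member values ran from -0.28 to 0.22, and 0 members reached 2-fold (background 2.15%). Other high values were those of Rpl23a, at the exit of the peptide tunnel, at 0.18 and of Rpl39 at 0.13. The lowest were Rps20 at -0.28, Rpl4 at -0.25, Rpl21 at -0.24 and Rpl7a at -0.22. Across the 76 members, the AEPS differences of the lines had a Pearson r of 0.29 and a Spearman rho of 0.06. Without Rpl22l1, Rpl7l1 and Rpl3l the r was -0.04 over 73 genes, while over all 20339 genes it was 0.88. Genes on an array share its hybridization and scaling, and they are not independent replicates.

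Ribosome genes that the name rule leaves out sat with the members. Of 7 tested, 0 were called higher and 0 lower with AEPS by limma, and their median effect was 0.17. Rplp0 and Rplp1, of the stalk that recruits translation factors, had effects of 0.19 and 0.21. Fau, which encodes a ribosomal protein fused to a ubiquitin-like protein, had 0.17, Rpl36al had 0.27 and Rpsa, also a laminin-binding protein, had 0.01. At an unadjusted p under 0.05, limma counted 0 of these 7, against 7582 of all 22341 genes tested.

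Genes that build the ribosome had a higher median AEPS effect than its proteins, a difference that was not tested. Of 61 tested ribosome biogenesis genes, 5 (8.20%) rose with AEPS by limma and 0 fell, a share near the 7.4% of all genes called higher, with a median effect of 0.35, and 56 were positive in both lines. Those that rose were Rrp9, a U3 snoRNP protein, by 1.0 (limma adjusted p = 0.0267), the large-subunit assembly factors Nip7 by 0.78 and Rrs1 by 0.74, Wdr43, of the small-subunit processome, by 0.73 and Efl1, a GTPase that releases eIF6 from the large subunit, by 0.70. At the low end, the U3 snoRNP protein Imp3 had -0.041 and the nucleolar GTPase Gnl3 0.086. Of 6 snoRNA host genes, whose introns carry snoRNAs, 2 (33.3%) rose and 0 fell, with a median of 0.50. Those that rose were Snhg3 by 0.83 and Snhg12 by 0.66.

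Translation factors, many of which share the TOP motif with the members, differed among themselves. Of 36 tested, 4 (11.1%) rose and 0 fell by limma, against 7.4% and 7.29% of all genes, with a median of 0.23. Eif1, which scans for the start codon, had an intensity of 115614 in knockdown under AEPS and 55363 in knockdown in DMEM, and 133858 in scramble under AEPS and 74103 in scramble in DMEM. It rose by 1.05 ± 0.11 (SE; limma adjusted p = 0.0195). Eif1a rose by 0.91, Eif6 by 0.74 and Eif2s2 by 0.64. The TOP mRNAs Eef1a1 and Npm1 had effects of 0.14 and 0.34 and did not pass. Eef1g, another TOP mRNA, had -0.45 (limma adjusted p = 0.0839), and Eif3f had -0.06.

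Among 27 genes of RNA polymerases I and III, 2 (7.41%) rose and 0 fell by limma, near the 7.4% of all genes called higher, with a median effect of 0.041. Polr3d, a subunit of polymerase III, rose by 0.89 and Taf1d, of the polymerase I factor SL1, by 0.61, while the polymerase III factor Brf1 and the polymerase III repressor Maf1 had effects of -0.54 and -0.51 without passing. Of 75 mitochondrial ribosomal protein genes, 1 (1.33%) rose and 2 (2.67%) fell, against 7.4% and 7.29% of all genes. Their median was 0.09, with an SD over genes of 0.28, against 0.070 for the cytosolic members. Mrpl52 rose by 1.33, and Mrps6 fell by 0.82 and Mrps35 by 0.62.

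Of 20 regulators of TOP mRNA translation and of ribosome gene transcription, 3 (15.0%) rose and 2 (10.0%) fell by limma (median -0.06). Of all genes tested, 7.4% were called higher and 7.29% lower. Myc, a transcription factor that promotes ribosome production, had an intensity of 9417 in knockdown under AEPS and 1553 in knockdown in DMEM, and 9816 in scramble under AEPS and 1611 in scramble in DMEM. Both AEPS arrays were far above both DMEM arrays, and Myc rose by 2.69 ± 0.13 (SE; limma adjusted p = 0.00735). Mxd1, a Myc antagonist, rose by 1.45 and Rictor, of mTORC2, by 0.79. Deptor, an mTOR inhibitor, fell by 1.08 and Rptor, of mTORC1, fell by 0.66. Mnt, another Myc antagonist, had -0.90 (limma adjusted p = 0.0549).

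**Figure D5:**
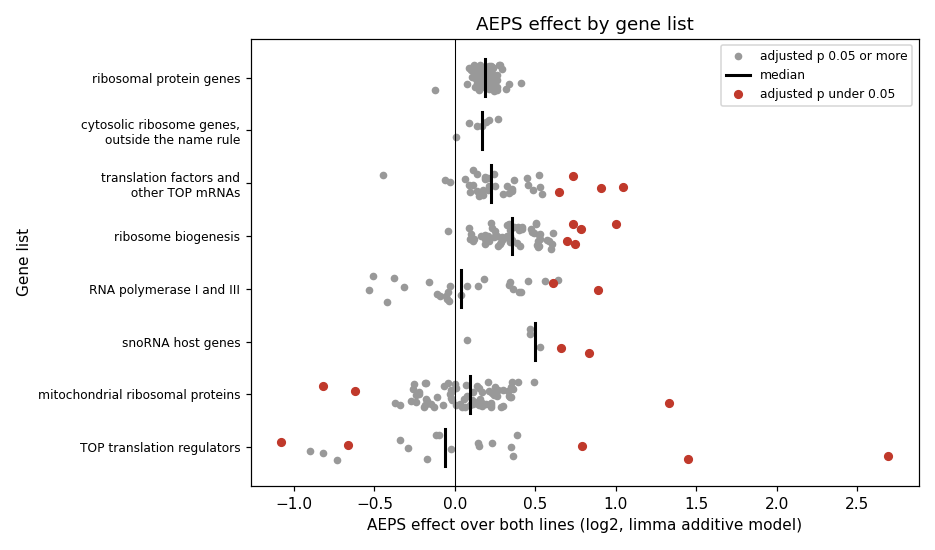
AEPS effect over both lines (x axis, log2, limma additive model) for each gene of 8 lists (y axis), with the list's median as a black bar. Dark red points have a limma adjusted p under 0.05. The 76 ribosomal protein genes form a narrow group around 0.19 with 0 such points, as has the list of 7 ribosome genes outside the name rule, while the other 6 lists hold 21 in all. Over all 7 lists beside the members that is 9.05% of the genes tested, against 14.7% of all genes called either way.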

How the data were processed

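The deposited scanner files hold spot intensity on a linear scale, read by the authors with Agilent Feature Extraction (named in the submitters' processing notes), version 10.7.1.1 per the file headers, background-subtracted and detrended within each array and not scaled between arrays. In the deposited value table the unit is log2, and no source used here describes how the authors made it.

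Scaling took the log2 processed intensity minus the log2 of its 75th percentile on that array (59305 spots that are not controls). Outlier spots (164 to 231 per array) were left out, spots of a probe averaged, and the probe with the highest mean signal taken per gene. Spots of repeated probes had a median SD of 0.049 to 0.076 log2 units within an array. The 22341 genes that passed background on at least 2 arrays were fitted with limma 3.58.1 in R 4.3.3 (lmFit and eBayes, line plus treatment, Benjamini-Hochberg, threshold 0.05). This model has 1 residual degree of freedom, which is the line-by-treatment difference. The eBayes prior had an SD of 0.132 and was worth 2.82 degrees of freedom. Such p-values rest on 4 arrays and on no repeated culture. The fit was tested on simulated data. Where each group has 1 array, genes were compared by size, with thresholds of 2-fold and of 0.32 on the log2 scale. Probe letters and mm9 positions come from the array files, promoter letters from RefSeq (GRCm38.p6).

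The members and the gene lists were chosen with earlier results of these data known. Named members are the 6 highest and 6 lowest AEPS effects, the 5 each way for the line, the 4 each way for the difference in response, the 3 brightest and 3 dimmest, paralog pairs, probes that disagree by 0.5 or more, and members not above background. In other lists the 2 highest and 2 lowest and a few fixed genes are named, with every gene called in a list. Some single genes are not reported here, though counts and medians include them. Alternatives tried were normexp (offset 50), quantile normalization, median scaling, the value table, the mean over probes, other filters on dim genes, a prior with an intensity trend and probes fitted singly.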

Additional observations from a re-analysis of the deposited data

Results flagged for a closer look

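By their brightest probes, 4 members had AEPS differences of opposite sign in the lines, with 1 array behind each group. Of all 76 members, 71 were higher with AEPS in both lines and 1 was lower in both. Among the 20339 genes measured on all 4 arrays, these counts were 9094 and 6717. AEPS minus DMEM on the log2 scale was -0.018 on the arrays labelled knockdown and 0.231 on those labelled scramble for Rpl4, -0.002 and 0.174 for Rps2, -0.039 and 0.241 for Rps20, and -0.022 and 0.167 for Rps24. The difference between the lines was not tested for any of them, since an interaction leaves no residual degree of freedom. The negative values are smaller than the spot SD of 0.049 to 0.076 within an array. Another Rps2 probe was higher with AEPS in both lines (0.18 and 0.22), as were other Rps24 probes (0.28 and 0.24, 0.14 and 0.21).

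The members' median of knockdown minus scramble also changed sign between the media, with -0.010 under AEPS and 0.027 in DMEM, and this difference was not tested.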

How the results depend on the processing

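No paired analysis was possible because every label carries the same replicate number and each group holds 1 array. The count of members called for AEPS was 0 in 8 of the 10 settings tried, the one reported included; it was 1 with normexp (11.3% of all genes called higher) and 54, all higher, with a prior that follows intensity (16.2%). The count for the line was 0 in all 10. The limit on every value is 1 array per group.

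With quantile normalization, the members' median AEPS difference was 0.037 on the arrays labelled knockdown and -0.016 on those labelled scramble. In the value table, by its own labels, it was 0.0099 for knockdown and 0.045 for scramble. As each line's columns in that table match the scanner arrays of the other line, 0.0099 belongs beside -0.016 and 0.045 beside 0.037. With alternatives chosen after seeing the data, the median minus that of equally bright non-members was -0.00020 (knockdown) and 0.0093 (scramble), and the median without scaling was 0.20 (knockdown) and -0.0030 (scramble), against 0.084 and -0.15 for all genes. The median difference in response was 0.047 with quantile normalization, against -0.034. It was also -0.034 in the value table by its own labels, and by the labels of the scanner files its sign would change. The count of members past 0.32 in both lines was 3 with the mean over probes, 0 with quantile normalization and 0 in the value table, against 1. Calls in the other lists numbered 103 with the intensity trend, 71 with normexp, 51 with the filter on all 4 arrays and 1 with no filter, against 21, and those over all genes 6698, 5096, 4498 and 303, against 3282.

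AEPS effects of named members turned negative with quantile normalization for 10 of 27, namely Rpl22 (-0.11), Rpl3 (-0.092), Rpl39 (-0.015), Rpl4 (-0.14), Rpl7 (-0.030), Rps2 (-0.16), Rps20 (-0.0021), Rps24 (-0.060), Rps27l (-0.12) and Rps3a (-0.029). By the authors' value table it was 8 of 27, namely Rpl22 (-0.083), Rpl3 (-0.061), Rpl4 (-0.096), Rpl7 (-0.0092), Rps2 (-0.096), Rps24 (-0.050), Rps27l (-0.061) and Rps3a (-0.012). Rpl22 was -0.11 with the mean over probes, and Rpl3l was 0.013 with normexp. The cause of these changes was not tested. With the intensity trend, named members passed the threshold at unchanged effects of 0.19 for Rpl10, 0.41 for Rpl22l1, 0.26 for Rpl23a, 0.27 for Rpl30, 0.16 for Rpl35, 0.28 for Rpl35a, 0.15 for Rpl37, 0.23 for Rpl39, 0.18 for Rpl7, 0.26 for Rpl7a, 0.29 for Rps13, 0.16 for Rps14, 0.32 for Rps18, 0.23 for Rps27, 0.21 for Rps27a and 0.16 for Rps3a. With normexp, Rpl22l1 passed at 0.41.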
